A study of Sus scrofa with 9 samples.

Results

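Helper and cytotoxic T cells of porcine blood were set against each other: 3 arrays of CD3+CD4+ cells, called the CD4 fraction, against 3 arrays of CD3+CD8+ cells, called the CD8 fraction. Of the 43603 probes on the array that are no controls, 14629 were compared. These were the probes that the scanner software marked as well above background on all 3 arrays of the CD4 fraction or on all 3 arrays of the CD8 fraction. The series holds 9 arrays of sorted T cells from sows, and its stated design compares each of these fractions with CD3+CD4+CD8+ cells, called double positive here. The double positive arrays entered the fit to help estimate the spread between arrays. The labels name no treatment, genotype, breed or age, and the same holds for all 3 fractions. They name each gate by the markers its cells carried, and whether the CD3+CD4+ gate left out cells with CD8, or the CD3+CD8+ gate left out gamma delta T cells, was not given in the sources used here.

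T cells that carry CD4 help other cells of the immune system through surface ligands and cytokines, after their receptor has met peptide on MHC class II. T cells that carry CD8 meet peptide on MHC class I and can kill target cells with granzymes released from granules, and many of them share receptors with natural killer cells. In pigs, T cells themselves can carry MHC class II, blood holds many T cells with both coreceptors, and gamma delta T cells, some of which carry CD8, make up a large part of blood T cells.

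A level is the log2 of the scanner's processed signal minus the 75th percentile of that signal on the same array, so 0 is the level of that percentile. A difference is the mean of the CD4 fraction minus the mean of the CD8 fraction on this scale, with its standard error (SE), and n = 3 arrays per fraction throughout. A probe is said to be called if the adjusted p of limma's moderated test, over all 14629 probes, was under 0.05. Before scaling, the 75th percentile of the signal lay between 15.2 and 84.1 on the CD4 arrays and between 18.4 and 29.7 on the CD8 arrays. Between 32.6% and 53.7% of probes were well above background on the CD4 arrays and between 33.8% and 45.5% on the CD8 arrays, and no spot was saturated. Pearson correlations over the tested probes were 0.896 to 0.957 among CD4 arrays, 0.879 to 0.903 among CD8 arrays and 0.861 to 0.937 across the fractions. The 0.937 joined CD4 array 3 and CD8 array 3, which lay on the same slide. Slide 2 held CD4 array 2 and CD8 arrays 1 and 2, and slide 3 held CD4 arrays 1 and 3 and CD8 array 3. The series text calls the replicates biological, without saying how many sows they came from.

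Of the 14629 probes, 72 were called (0.492%), with 20 higher in the CD4 fraction (0.137%) and 52 lower (0.355%). An unadjusted p under 0.05 was found for 691 probes. Few probes thus passed the threshold, and most of those were brighter in the CD8 fraction. With 3 arrays per fraction, a probe that was not called may still differ. The number called ran from 5 to 108 over the other settings and omissions. The median difference over all tested probes was -0.03. Each array read a whole sorted fraction, so fewer cells that carry a transcript and less of it per cell cannot be told apart. The 3 CD4 and 3 CD8 arrays did not overlap in 8.4% of all tested probes, and in each of the 72 called ones.

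How a probe came to be tested bore on its call. Of the 11679 probes detected on all 6 arrays, 20 were called (0.171%), with 2 higher in the CD4 fraction (0.0171%) and 18 lower (0.154%), and 6.47% did not overlap. Of 1943 probes tested through the CD4 side only, 18 were called (0.926%), all higher there, and 11.2% did not overlap. Of 1007 probes tested through the CD8 side only, 34 were called (3.38%), all lower in the CD4 fraction, and 25.4% did not overlap. None of the probes tested through 1 side was called in the other direction (0%). Such a probe had to be bright on its own side, so its direction was partly set by the filter. With no filter at all, 97 of 43603 probes were called, and 70 of the 72 were among them.

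Probes were named through their sequence accession, which gave a gene to 3116 of the tested probes (21.3%), for 1396 genes, and 35 of the 72 called probes had a name. Taking each gene by its brightest tested probe, 17 of the 1396 genes were called (1.22%). CD4, CD40LG, IL6R, IL6ST and KLF4 were higher in the CD4 fraction (5 genes, 0.358%). ADGRG1, KLRK1, CCL5, UCHL1, CD8A, GZMH, S1PR5, CD96, IFNG, SLA-DRA, SLA-DRB1 and SLA-DQB1 were lower (12 genes, 0.86%). The arrays of the fractions did not overlap in 9.67% of the 1396 genes. With any probe counted, 21 genes had a called one (1.5%), which added FST and STMN1 on the higher side and MGST1 and SLA-DQA1 on the lower. Fewer probes were called on the helper side in several repeats: omission of CD4 array 2 left 2 higher and 39 lower and no named gene higher, and slide as a block on the 6 CD4 and CD8 arrays alone left 3 higher and 30 lower. Testing only the probes detected on all 6 arrays left 0 higher and 12 lower.

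The counts and the sizes moved most when a constant was added to the signals before the log. Normexp background correction of the spots' median signals, with an offset of 50, left 6 probes called, 0 higher and 6 lower, so 100% of the calls were lower against 72.2% in the comparison as reported. The scanner's own processed signal with 50 added left 5, all lower. Normexp with no offset called 50, with 10 higher and 40 lower. The same 2 genes, ADGRG1 and CD8A, were called by their brightest probe in both settings with the offset. Over the 21 genes with a called probe, the median size of the difference was 3.76 as reported, 2.88 by normexp with no offset, 1.69 with 50 added to the processed signal and 1.60 by normexp with the offset. By the last of these, the fold was 2.63 for CD4, 5.55 for KLRK1, 1.93 for IFNG, 2.24 for UCHL1, 1.36 for FST, 11.2 for CD8A, 10.5 for GZMH and 16.1 for ADGRG1. Folds and bounds of dim genes given here thus hold only for the scanner's processed signal with no constant added. By normexp with no offset the fold was 9.78 for CD96, 4.62 for MGST1 and 3.12 for STMN1. Each of these is under the bound given below, while UCHL1 (32.2) and FST (3.12) were above theirs. In the same setting KLRK1 had 25.5 and ADGRG1 49.5, under their raised-floor folds, a term explained next.

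A called probe that was above background on only some arrays of its dimmer fraction has no exact fold. For these genes the fold is given with each array that was not above background raised to the lowest signal that counted as above background there, called the raised-floor fold.

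**Figure D1:**
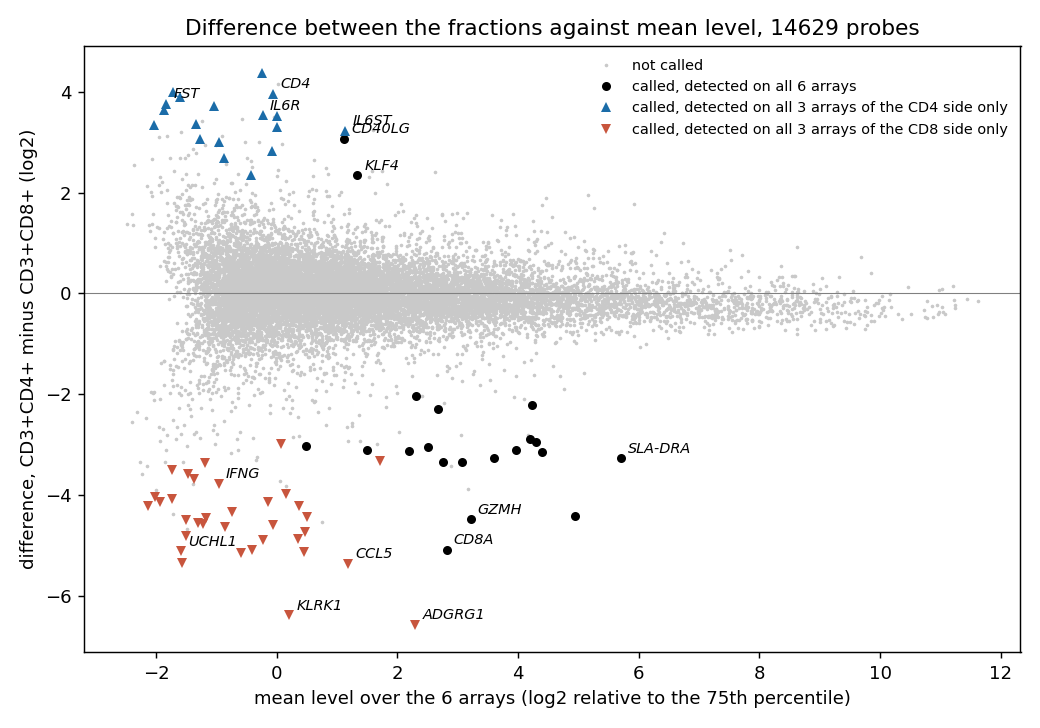
Difference between the fractions (CD3+CD4+ minus CD3+CD8+, log2, vertical axis) against the mean level over the 6 arrays (log2 relative to the 75th percentile, horizontal axis), 1 point for each of 14629 probes. Of the 72 called probes, 20 were detected on all 6 arrays (black circles), 18 on all arrays of the CD4 side only (blue triangles) and 34 on all arrays of the CD8 side only (red triangles).

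CD4, the coreceptor that marks helper cells, stood at 2.35, 1.92 and 1.47 on CD4 arrays 1, 2 and 3 and at -3.27, -0.79 and -2.06 on the CD8 arrays. It was well above background on 1 of the 3 CD8 arrays, and every CD4 array lay above every CD8 array. The difference was 3.96 (SE 0.63, adjusted p = 0.0134), a raised-floor fold of 8.79, and the second CD4 probe was called too, with a difference of 4.36. The adjusted p was 0.0523 with slide as a block, and between 0.0549 and 0.0714 without CD4 array 1 or 2 or CD8 array 1 or 3.

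CD8A, a chain of the coreceptor of cytotoxic cells, stood at 0.29, 0.94 and -0.40 on the CD4 arrays and at 5.81, 5.53 and 4.72 on the CD8 arrays. The groups lay far apart, yet the probe was well above background on all 3 CD4 arrays as well. The difference was -5.08 (SE 0.50, adjusted p = 0.000916), a fold of 33.8, and both CD8A probes were called. It was called under each of the 24 other settings and omissions run. The sorting markers thus followed the labels on every array.

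The chains of the T cell receptor complex, CD3D, CD3E, CD3G and CD247, were well above background on all 6 arrays, and none was called. Their differences were 0.75, -0.13, -0.52 and 0.15. All 4 carry the signal of the receptor into the cell, and the arrays of the fractions overlapped for each of them. The wider list of the receptor complex and its proximal signalling had 12 tested genes, none called, with a median difference of 0.11. Markers of natural killer and gamma delta T cells were thin on the array. NCR1, a receptor of natural killer cells, and CD163L1, a surface protein of porcine gamma delta T cells, were not well above background on any of the 9 arrays. TRDC, TRGC1, SOX13, KLRF1 and KLRD1 had no named probe. The other natural killer marker with a named probe, FCGR3A, was well above background on all 9 arrays. It lay higher on the CD8 arrays, at 4.27 to 5.63 against 2.09 to 3.59, and was not called, as described below.

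**Figure D2:**
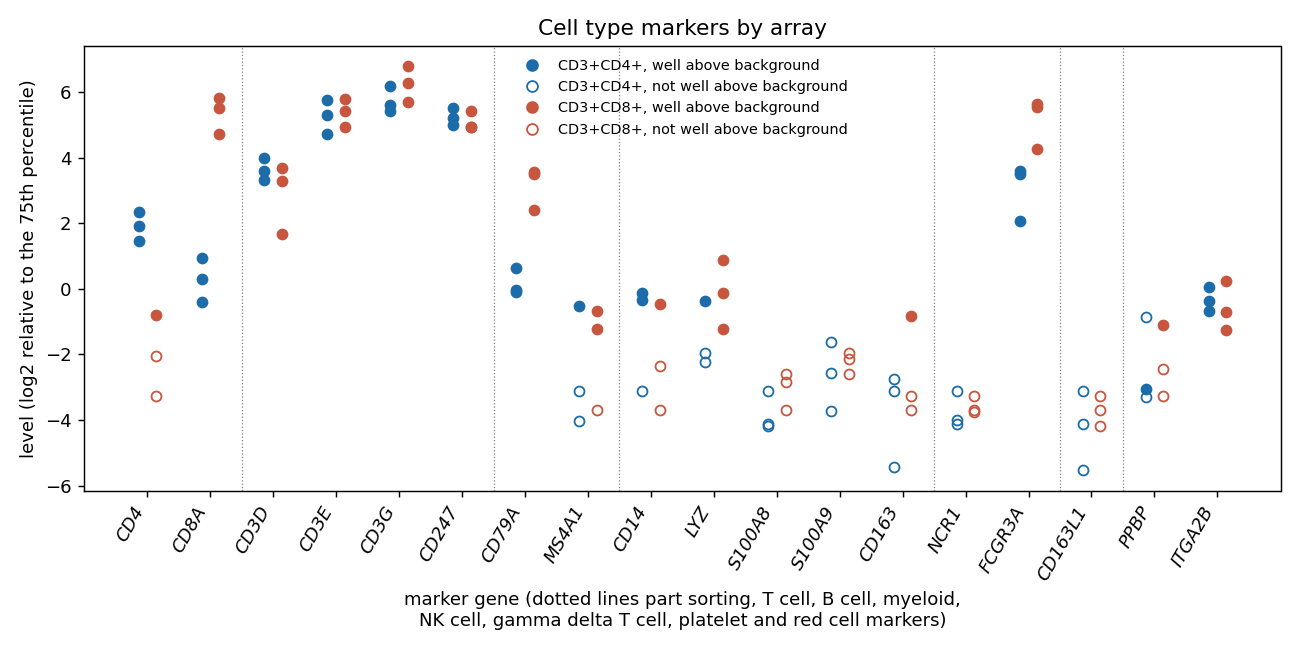
Levels of the sorting markers and of markers of T cells, B cells, myeloid cells, natural killer cells, gamma delta T cells, platelets and red cells (log2 relative to the 75th percentile, vertical axis) on the 3 CD3+CD4+ (blue) and 3 CD3+CD8+ (red) arrays, with open points for arrays not well above background. CD4 and CD8A part the fractions, the CD3 chains do not, and CD79A lies higher on the CD8 arrays.

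Receptors that cytotoxic T cells share with natural killer cells were called lower in the CD4 fraction in ADGRG1, KLRK1 and CD96. ADGRG1, an adhesion G protein-coupled receptor of killer lymphocytes, stood at -0.20, -2.39 and -0.37 on the CD4 arrays and at 5.55, 6.41 and 4.78 on the CD8 arrays. The lowest CD8 array thus stood far above the highest CD4 array, and 2 of the 3 CD4 arrays were well above background. The difference was -6.57 (SE 0.60, adjusted p = 0.000916), a raised-floor fold of 65.4. It was -8.37 within slide 2 and -5.06 within slide 3, and the gene was called under all of the 23 other settings and omissions that gave it a value. The slide 2 value rests on CD4 array 2, the CD4 array not well above background, and so is not exact.

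KLRK1 encodes NKG2D, an activating receptor for ligands that appear on stressed cells. Its level was -2.70, -3.11 and -3.14 on the CD4 arrays, of which 1 was well above background, and 4.31, 3.24 and 2.63 on the CD8 arrays. No CD4 array came near the CD8 arrays. The difference was -6.38 (SE 0.63, adjusted p = 0.000916), a raised-floor fold of 35.6, and with slide as a block the adjusted p was 0.0123. HCST, the adaptor through which NKG2D signals, was detected on all 6 arrays with overlapping levels and a difference of -0.76 (SE 0.43, adjusted p = 0.999).

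CD96, a receptor of T and natural killer cells for nectin-like adhesion molecules, was not well above background on any CD4 array and stood at 1.74, 2.65 and 1.36 on the CD8 arrays. For such a probe only a bound can be given: the mean of the bright fraction is set against the lowest signal that counted as above background, or the probe's own where higher. CD96 was at least 14.9-fold lower in the CD4 fraction, with an adjusted p of 0.00867 for its measured difference of -4.13 (SE 0.62). Without CD8 array 2 the difference was -3.77 and the adjusted p 0.0730.

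The list of receptors and adaptors shared by natural killer and cytotoxic T cells had 29 genes, of which 13 were named on the array and 8 tested. All 3 called members were those above, and each was tested through the CD8 side only, so the counts and the median lean on how they came to be tested. The 5 members detected on all 6 arrays were not called. FCGR3A, the Fc receptor CD16, had a difference of -2.09 (SE 0.54, adjusted p = 0.199) with no overlap, from 2.09 to 3.59 on the CD4 arrays against 4.27 to 5.63 on the CD8 arrays. FCER1G, the signalling chain of several Fc receptors, had one of -2.26 (SE 0.82, adjusted p = 0.703). The median over the 8 members was -2.17, and -1.23 by normexp with the offset, beside -0.04 over all 1396 named genes. With the replicate number as a block FCGR3A was called (adjusted p = 0.00714).

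Among the cytotoxic granule genes, GZMH, a granzyme, was called. It stood at 0.07, 2.14 and 0.71 on the CD4 arrays and at 4.53, 6.56 and 5.25 on the CD8 arrays. It was well above background on all 6, so it did not depend on the filter through 1 side. The difference was -4.47 (SE 0.62, adjusted p = 0.0064), a fold of 22.2, and it was called under every omission of a single array. Its other probe, with a difference of -3.88, was not called.

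NKG7, a granule membrane protein, had a difference of -2.05 (SE 0.49, adjusted p = 0.140) and did not overlap between the fractions. GZMB, the granzyme that starts apoptosis in target cells, stood at 1.47, 3.74 and -0.22 on the CD4 arrays and at 3.33, 7.91 and 2.14 on the CD8 arrays. CD8 array 2 was far above the others, the groups overlapped, and the difference of -2.80 (SE 1.31) had an adjusted p of 0.999. GZMM, another granzyme, differed by -1.68 (SE 0.70, adjusted p = 0.928). The granule list had 13 genes with a named probe and 9 tested ones. Of these 1 was called lower and none higher, with a median of -1.14, and of -0.30 by normexp with the offset. NKG7 was called with the replicate number as a block (adjusted p = 0.0192).

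Among secreted factors, CCL5 and IFNG were called. CCL5, a chemokine that draws T cells and monocytes, stood at -0.40, -2.93 and -1.15 on the CD4 arrays, of which 2 were well above background, and at 4.50, 4.43 and 2.67 on the CD8 arrays. The groups did not overlap. CD4 array 2 was the array not well above background, so its place among the CD4 arrays is not known. The difference was -5.36 (SE 0.72, adjusted p = 0.00583), a raised-floor fold of 25.0. It was -7.40 within slide 2, where CD4 array 2 was the only CD4 array, and -3.44 within slide 3. Both CCL5 probes were called.

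IFNG encodes interferon gamma, a cytokine of cytotoxic and type 1 helper cells. Levels were -3.09, -2.45 and -2.99 on the CD4 arrays, with 1 well above background, and 1.81, 0.91 and 0.05 on the CD8 arrays. All CD8 arrays were above the 75th percentile and all CD4 arrays well below it. The difference was -3.77 (SE 0.52, adjusted p = 0.0064), a raised-floor fold of 7.03. The adjusted p was 0.0293 when slide was a block, and 0.0661 with that block on the 6 CD4 and CD8 arrays alone.

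CCL4, a chemokine of activated cytotoxic cells, was not well above background on any CD4 array and stood at 0.56, 1.02 and -1.25 on the CD8 arrays. Its bound was at least 4.32-fold, with an adjusted p of 0.192 for a difference of -3.33 (SE 0.85), and of 0.00972 with the replicate number as a block. CXCL8, the neutrophil chemokine, overlapped between the fractions and differed by -0.74 (SE 0.71). Of 15 chemokines named on the array, 3 were tested and 1 was called lower, with a median of -3.33 that was -0.68 by normexp with the offset. CCL5 and CCL4 were tested through the CD8 side only, and the median is the value of CCL4, so both lean on the filter. Of 23 cytokines of T cells named on the array, 5 were tested, 1 was called lower and none higher, and 11 were not detected on any of the 6 arrays. Of the 5, 2 were tested through the CD8 side only, IFNG among them. The uncalled cytokines nearest to the threshold were IL5 at -1.59 (SE 0.74), IL16 at -0.59 (SE 0.39) and TGFB1 at 0.29 (SE 0.36).

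S1PR5, a sphingosine phosphate receptor that guides natural killer and effector cells out of tissue, stood at -0.63, -2.78 and -1.76 on the CD4 arrays and at 2.89, 3.31 and 1.94 on the CD8 arrays. It was well above background on 2 CD4 arrays, and the groups did not overlap. The difference was -4.44 (SE 0.69, adjusted p = 0.0103), a raised-floor fold of 13.7, and a second probe was called at -4.88. The adjusted p was between 0.0564 and 0.0778 without CD4 array 2 or CD8 array 1 or 2.

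Other receptors for homing did not pass the test. CCR7, which leads naive and central memory cells to lymph nodes, stood at 3.68, 3.92 and 4.34 on the CD4 arrays and at 2.82, 3.01 and 3.34 on the CD8 arrays, without overlap, and its difference was 0.92 (SE 0.36, adjusted p = 0.815). CCR9, a receptor for homing to the gut, differed by -1.97 (SE 0.56, adjusted p = 0.316). ITGAL, a chain of the adhesion molecule LFA-1, differed by -0.62 (SE 0.45). S1PR5 was the 1 called member of the 11 tested, and the median of their differences was -0.41. S1PR5 itself was tested through the CD8 side only.

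**Figure D3:**
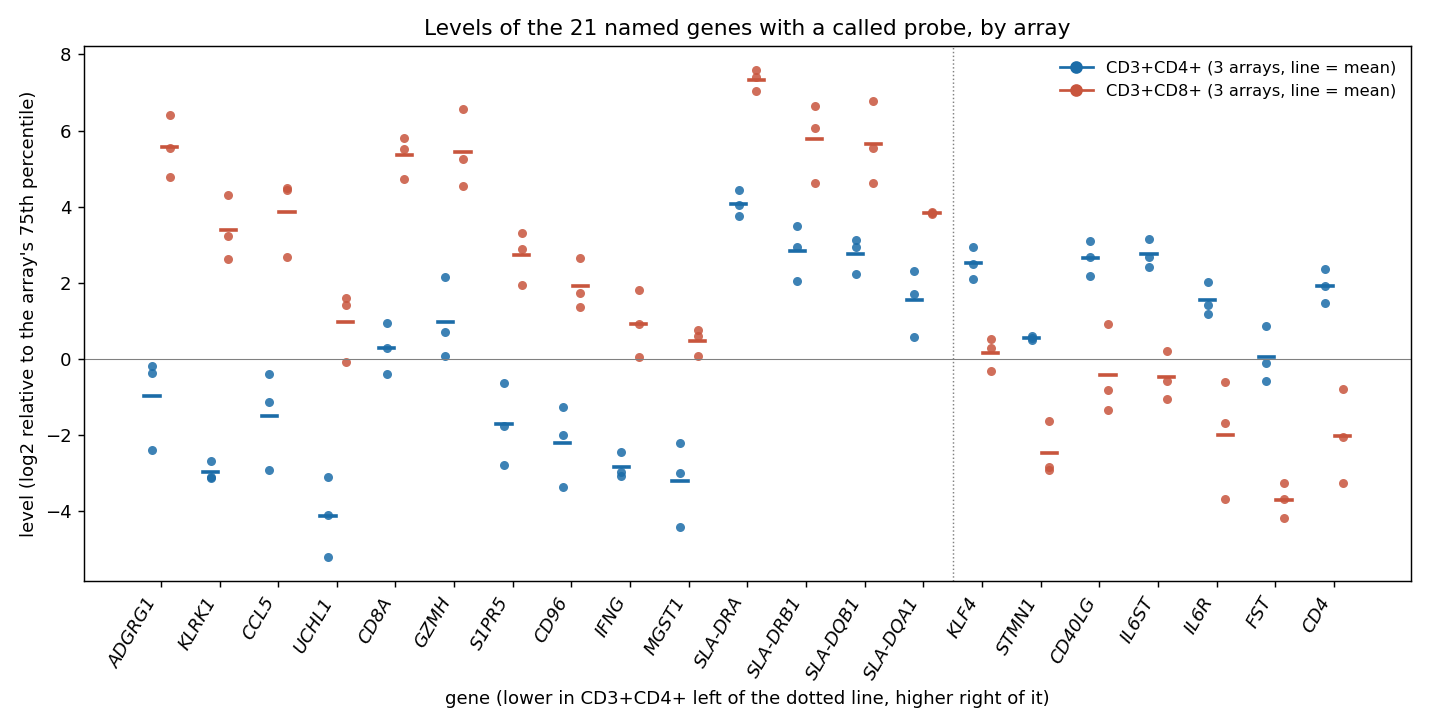
Levels (log2 relative to the 75th percentile, vertical axis) of the called probe, the brightest where it was called, of each of the 21 genes with a called probe on the 3 CD3+CD4+ (blue) and 3 CD3+CD8+ (red) arrays, with a line at each mean. Points of the fractions do not overlap for any of the 21, and 14 genes lie left of the dotted line (lower in CD3+CD4+) and 7 right of it.

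On the helper side, CD40LG, the ligand with which helper T cells activate B cells and antigen-presenting cells, stood at 2.68, 3.09 and 2.18 on the CD4 arrays and at 0.91, -0.81 and -1.35 on the CD8 arrays. All 6 arrays were well above background, and the groups did not overlap. The difference was 3.07 (SE 0.61, adjusted p = 0.0489), a fold of 8.39, which is close to the threshold. With slide as a block the adjusted p was 0.0315, and with that block on the 6 arrays alone 0.0553. When only probes detected on all 6 arrays were tested, the adjusted p of CD40LG was 0.122. Without any 1 of the 9 arrays other than double positive array 3 and CD8 array 1, it was between 0.0535 and 0.259, and it was just over the threshold in other scalings: 0.0540 for the percentile over probes detected on all 6 arrays, 0.0532 for quantile normalization and 0.0551 for the processed value table.

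GATA3, a factor of helper cell development, stood at 2.80, 2.85 and 2.21 on the CD4 arrays and at 2.16, -0.92 and 0.63 on the CD8 arrays. The lowest CD4 array was only just above the highest CD8 array, and the difference of 1.99 (SE 0.64) had an adjusted p of 0.490. CD28, the costimulatory receptor, differed by 1.06 (SE 0.45) and TNFSF8, the CD30 ligand, by 0.88 (SE 0.49), both with overlap. The list of the helper lineage and its help molecules had 6 tested genes, of which CD4 and CD40LG were called and none was called lower. Their median was 1.53, and CD4 itself is the marker by which the cells were sorted and was tested through the CD4 side only. No gene of the list of regulatory T cells was tested.

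The CD4 fraction had more transcript of both chains of the interleukin 6 receptor. IL6R, the chain that binds the cytokine, stood at 2.02, 1.17 and 1.42 on the CD4 arrays and at -1.70, -3.68 and -0.62 on the CD8 arrays, with 1 of the latter well above background. The groups did not overlap, and the 2 CD8 arrays not above background have no order. The difference was 3.54 (SE 0.65, adjusted p = 0.0317), a raised-floor fold of 5.76, with 2 of 3 probes called. The adjusted p was 0.139 with slide as a block, 0.0713 with the percentile over the 6-array detected probes, and between 0.0555 and 0.136 without double positive array 1, any 1 of the CD4 arrays, or CD8 array 1 or 2.

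IL6ST, the chain gp130 that signals for the whole interleukin 6 family, stood at 2.42, 3.14 and 2.68 on the CD4 arrays and at -1.05, -0.59 and 0.19 on the CD8 arrays. It was well above background on 2 CD8 arrays, and the groups were clearly apart. The difference was 3.23 (SE 0.48, adjusted p = 0.00841), a raised-floor fold of 9.25, with 3.96 within slide 2 and 2.36 within slide 3. Without CD4 array 2 the difference was 3.03 and the adjusted p 0.0544. Its other probe had a difference of 2.95 and was not called.

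Other tested members of the interleukin 6 pathway were not called. JAK1, a kinase on gp130, differed by -0.12 (SE 0.35), and the sheddases that can release IL6R, ADAM10 and ADAM17, by 0.67 (SE 0.38) and 0.28 (SE 0.62), each with an adjusted p of 0.999. Of the 6 tested members, 2 were called higher. Among 12 tested cytokine receptor chains, the same 2 were the only ones called, the median was 0.73 (0.16 by normexp with the offset), and 8 differences were positive. Both called genes were tested through the CD4 side only. So were 4 of the 12 chains and 3 of the 6 pathway members in all, and none through the CD8 side only. The counts, signs and medians thus lean on how these genes came to be tested. IFNGR2, a chain of the interferon gamma receptor, did not overlap between the fractions, at 3.39, 4.18 and 3.50 on the CD4 arrays against 2.50, 2.41 and 1.42 on the CD8 arrays, and its difference of 1.58 (SE 0.41) had an adjusted p of 0.194. IFNAR1 differed by 0.72 (SE 0.49) and IL2RG, the chain common to several interleukin receptors, by 0.85 (SE 0.48), neither called.

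KLF4, a transcription factor known to hold T cells in quiescence, was the 1 called member among 16 tested transcription factors of T cells. It stood at 2.49, 2.95 and 2.10 on the CD4 arrays and at 0.28, 0.52 and -0.32 on the CD8 arrays, well above background on all 6 and without overlap. The difference was 2.35 (SE 0.42, adjusted p = 0.0281), a fold of 5.10. All 7 KLF4 probes were tested, their differences ran from 1.76 to 3.29, and 2 were called. The adjusted p was 0.0484 with slide as a block, 0.0525 with that block on the 6 arrays alone, and between 0.0608 and 0.173 without any 1 of the 6 CD4 and CD8 arrays. When only probes detected on all 6 arrays were tested, it was 0.0769. The median over the 16 factors was 0.25, and ID2, ID3 and HOPX had differences of -0.86, -0.94 and -0.91, none called.

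Genes of MHC class II made up 3 of the 12 genes called lower by their brightest probe. The list holds the chains that present peptide to T cells with CD4 and the proteins that load and regulate them. SLA-DRA, the alpha chain of the DR molecule, stood at 4.03, 3.76 and 4.42 on the CD4 arrays and at 7.59, 7.41 and 7.03 on the CD8 arrays. It was bright on all 6 arrays, and replicates lay close together. The difference was -3.27 (SE 0.46, adjusted p = 0.0064), a fold of 9.65, with 6 of 7 probes called and all between -3.82 and -3.04.

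SLA-DQB1, a beta chain of the DQ molecule, stood at 3.11, 2.22 and 2.95 on the CD4 arrays and at 6.77, 4.61 and 5.54 on the CD8 arrays. The groups did not overlap, the difference was -2.88 (SE 0.53, adjusted p = 0.0317), and 3 of 4 probes were called. The adjusted p was 0.0702 with slide as a block and between 0.0527 and 0.173 without double positive array 1, any 1 of the CD4 arrays, or CD8 array 1 or 3.

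SLA-DRB1, a beta chain of DR, stood at 3.49, 2.06 and 2.95 on the CD4 arrays and at 6.65, 4.61 and 6.06 on the CD8 arrays, again without overlap. The difference was -2.94 (SE 0.58, adjusted p = 0.0461), with 1 of 4 probes called. It was not called without double positive array 1, any 1 of the CD4 arrays, or CD8 array 1 or 3, with adjusted p from 0.0551 to 0.247. Both beta chains also missed the threshold under quantile normalization, at 0.117 for SLA-DRB1 and 0.0903 for SLA-DQB1. When only probes detected on all 6 arrays were tested, the adjusted p was 0.122 for SLA-DRB1 and 0.0889 for SLA-DQB1. These genes have near-identical relatives in the pig, and a probe may pick up more than 1 of them.

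SLA-DQA1, the alpha chain of DQ, was not called by its brightest probe, with a difference of -1.90 (SE 0.50, adjusted p = 0.226, or 0.0182 with the replicate number as a block), and 2 of its 7 probes were called. Its called probe with the higher mean level stood at 2.31, 0.58 and 1.70 on the CD4 arrays and at 3.81, 3.86 and 3.82 on the CD8 arrays, with a difference of -2.30 (SE 0.45, adjusted p = 0.0454). Without 1 of the arrays, CD4 array 1 and double positive array 3 apart, that adjusted p was between 0.0616 and 0.200, and with slide as a block it was 0.0523.

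CD74, the invariant chain that escorts MHC class II, differed by -1.98 (SE 0.48, adjusted p = 0.142), and SLA-DMB, a chain of the molecule that exchanges peptides, by -2.28 (SE 0.53, adjusted p = 0.121). Neither overlapped between the fractions. Of the 8 tested members of the list, 7 were negative, 3 were called lower and none higher. Over all 1396 named genes 0.86% were called lower. The median of the list was -2.13, or -1.32 by normexp with the offset, beside -0.04 over all named genes. Within slide 2 the median was -2.83 and within slide 3 it was -1.88.

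B cells carry MHC class II, and CD79A, 1 of the 2 named B cell markers reported here, lay higher on the CD8 arrays as well. CD79A, a signalling chain of the antigen receptor of B cells, stood at -0.10, -0.04 and 0.64 on the CD4 arrays and at 3.50, 2.39 and 3.56 on the CD8 arrays, without overlap, and its difference of -2.98 (SE 0.60) had an adjusted p of 0.0519. It was called in 8 of the other settings, with an adjusted p of 0.0104 in the fit on the 6 arrays alone and of 0.00701 with no filter. Of the 5 B cell markers reported here, 2 were named on the array. The wider B cell list had 8 genes named on the array, of which CD79A was the 1 tested. Of these 8, 4 were not detected on any of the 6 arrays. MS4A1 was well above background on 1 CD4 and 2 CD8 arrays. The level of the summed signals of CD79A and MS4A1 was -0.0049 to 1.17 on the CD4 arrays against 2.41 to 3.61 on the CD8 arrays. CD79A was the larger of the 2 on each of these arrays, and their part in the result was not tested. In the double positive fraction CD79A averaged -0.05 ± 1.27 (SD) while SLA-DRA averaged 6.91 ± 1.00 (SD).

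Myeloid markers were low in both fractions. S100A8 and S100A9, abundant proteins of granulocytes and monocytes, were at background on all 9 arrays, and CD163 was above it on 1 CD8 array only. CD14 was above background on 2 CD4 arrays and 1 CD8 array. LYZ, lysozyme, stood at -0.36, -2.22 and -1.96 on the CD4 arrays and at -0.13, -1.21 and 0.89 on the CD8 arrays, with overlap and a difference of -1.37 (SE 0.77, adjusted p = 0.999). The level of the summed signals of the 5 named markers was -0.18 to 0.78 on the CD4 arrays against -0.27 to 1.84 on the CD8 arrays. In the wider myeloid list 10 of 27 named genes were tested and none was called, with AIF1 at -1.95 (SE 0.66), FGL2 at -1.62 (SE 0.48) and CD86 at -1.33 (SE 0.67).

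Among the called genes outside these lists, UCHL1, a ubiquitin hydrolase best known from neurons, stood at 1.40, 1.60 and -0.09 on the CD8 arrays and was not well above background on any CD4 or double positive array. It was at least 7.84-fold lower in the CD4 fraction, with an adjusted p of 0.0247 for its measured difference of -5.11 (SE 0.90). That adjusted p was 0.0914 with slide as a block and between 0.0544 and 0.191 without CD4 array 1 or 3 or any 1 of the CD8 arrays. MGST1, a membrane-bound glutathione transferase, was at least 5.53-fold lower by its 1 called probe of 6 tested (adjusted p = 0.0341), while its brightest probe differed by -2.34 (SE 0.50, adjusted p = 0.0782). The called probe missed the threshold without CD4 array 1 or 2 or any 1 of the CD8 arrays, with adjusted p from 0.100 to 0.190, and had 0.0906 with slide as a block.

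FST encodes follistatin, a secreted protein that binds activin. Its called probe was at background on all 3 CD8 arrays and stood at -0.12, 0.87 and -0.59 on the CD4 arrays, so at least 2.75-fold higher in the CD4 fraction (measured difference 3.76, SE 0.61, adjusted p = 0.0140). Its brighter probe had a difference of 1.88 (SE 0.72, adjusted p = 0.817), and the call was lost without CD4 array 1 or 2 or CD8 array 2 or 3, at 0.0586 to 0.105.

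STMN1, a protein that destabilises microtubules and is abundant in dividing cells, was called by 1 of its 5 probes, at least 3.87-fold higher in the CD4 fraction (measured difference 3.01, SE 0.53, adjusted p = 0.0257). Its brightest probe was well above background on all 6 arrays, at 5.97, 6.40 and 5.91 on the CD4 arrays against 4.13, 5.10 and 3.99 on the CD8 arrays. There the groups did not overlap, the difference was 1.69 (SE 0.38) and the adjusted p 0.0977, or 0.0345 with quantile normalization and 0.0377 with the replicate number as a block. The call of the first probe was lost without any 1 of the CD4 arrays or CD8 array 2 or 3, at 0.0927 to 0.143, and was 0.0650 with slide as a block. Of 10 tested genes of dividing cells none was called by its brightest probe, and BIRC5 and CKS1B, genes of mitosis and of the cell cycle, differed by 1.27 (SE 0.85) and 1.09 (SE 0.43).

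The gene lists numbered 30, of which 29 had a tested member and 10 a called one. The count of called members in each list stands beside 0.358% called higher and 0.86% called lower over all 1396 named genes. The 19 without a called member included most lists of cell state. Genes of naive and central memory cells (8 tested) had a median difference of 0.15 and those of effector and memory cells (8 tested) one of -0.61. In the latter, LGALS1, a galectin of activated cells, did not overlap between the fractions, with a difference of -1.97 (SE 0.46, adjusted p = 0.128), and S100A6 and ANXA1 differed by -1.62 (SE 0.75) and 0.87 (SE 0.40). JAK and STAT genes (10 tested) had a median of 0.03, with STAT5A at 1.05 (SE 0.54). Genes of apoptosis and survival (16 tested) had one of 0.16 and genes of fatty acid and sterol metabolism (13 tested) one of 0.03, with SCD, a fatty acid desaturase, at -1.53 (SE 0.53, adjusted p = 0.610).

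Genes of protein synthesis and respiration had small and mostly negative differences, with none called. Of 33 ribosomal protein genes 32 had a negative difference, with a median of -0.43 and RPL7 at -0.67 (SE 0.38). The median over all named genes was -0.04. Of 25 genes of the respiratory chain 23 were negative, with a median of -0.32. Ribosomal medians were -0.34, -0.17, -0.23 and -0.22 with the percentile over detected probes, normexp with the offset, quantile normalization and the processed value table. For the respiratory chain the median within slide 3 was 0.08, against -0.36 within slide 2. The proteasome list (13 tested) had a median of -0.14, which was 0.05 by normexp with the offset. Medians of the lists of MHC class I (14 tested, -0.08), immediate early and heat shock genes (20 tested, -0.04), interferon-induced genes (15 tested, -0.00057) and glycolysis (11 tested, -0.05) were positive under at least 5 of the 6 other scalings and signals, so no direction is given for them.

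In the remaining lists too few genes were tested for more than single values. Platelet and red cell genes (3 tested) had a median of 0.24, the inhibitory receptors had CD47 alone at 0.34 (SE 0.43), and the gamma delta list had ID3 alone at -0.94 (SE 0.59).

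**Figure D4:**
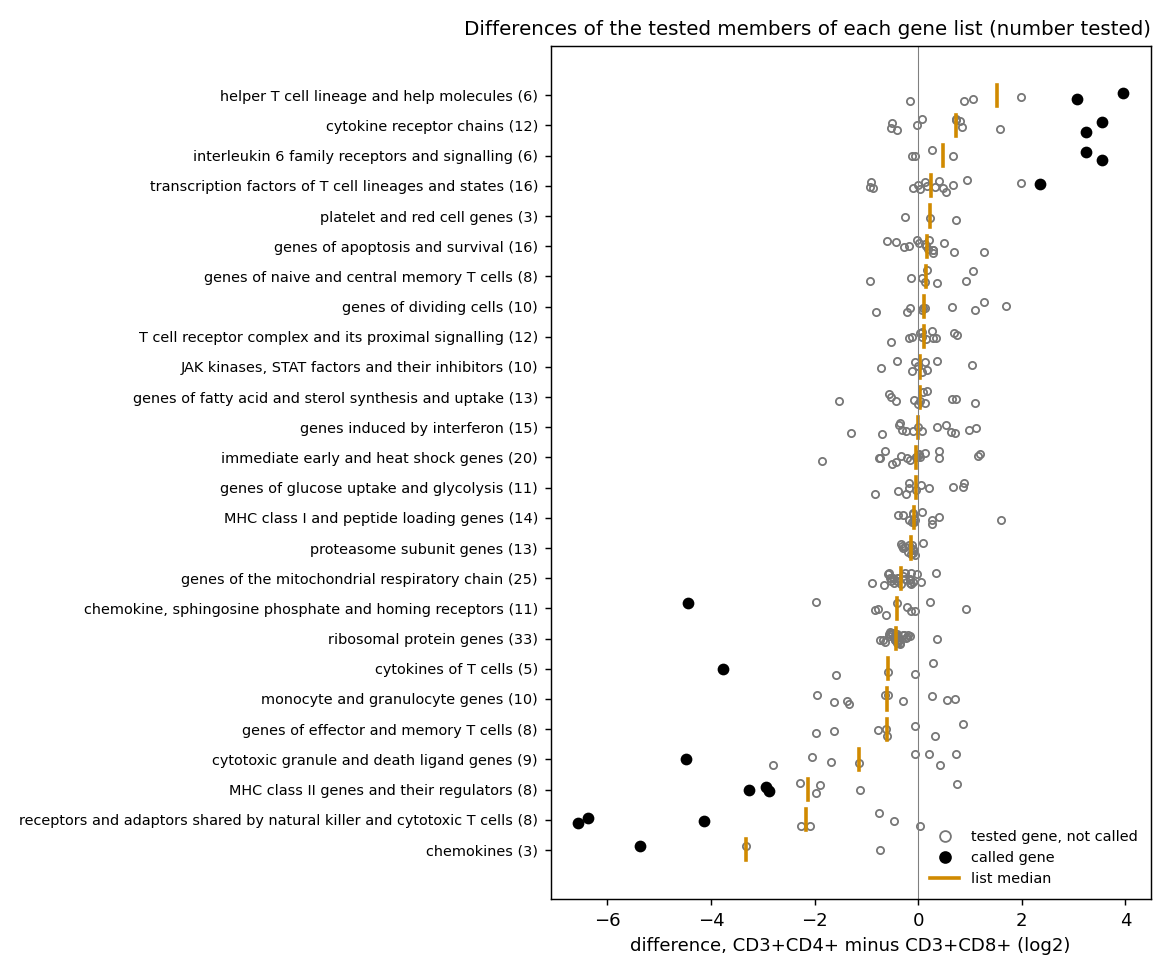
Differences (CD3+CD4+ minus CD3+CD8+, log2, horizontal axis) of the tested members of each gene list with at least 3 tested genes, 1 point per gene by its brightest probe, filled where called, with an orange line at the list's median. Medians run from -3.33 for the 3 chemokines to 1.53 for the 6 helper genes, and filled points stand in 10 lists. Of the 3 chemokines, 2 were tested through the CD8 side only.

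Slides held unequal numbers of the fractions, so the comparison was repeated with slide as a block. The double positive array alone on slide 1 then adds nothing to the spread. The fit called 40 probes, 8 higher and 32 lower, of which 39 were among the 72. Of the 17 genes called by their brightest probe, CD4, IL6R, UCHL1 and SLA-DQB1 were not called in it, and the other 13 were. Within slide 2 (1 CD4 and 2 CD8 arrays) and within slide 3 (2 CD4 and 1 CD8 arrays) all 72 called probes had the same sign. This had to be so, since the CD4 and CD8 arrays did not overlap for any of the 72, and it adds no support. Their median size was 3.74 over all arrays, 3.78 within slide 2 and 3.41 within slide 3. With slide as a random block the correlation within slides was 0.026 and 74 probes were called, among them all 72.

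**Figure D5:**
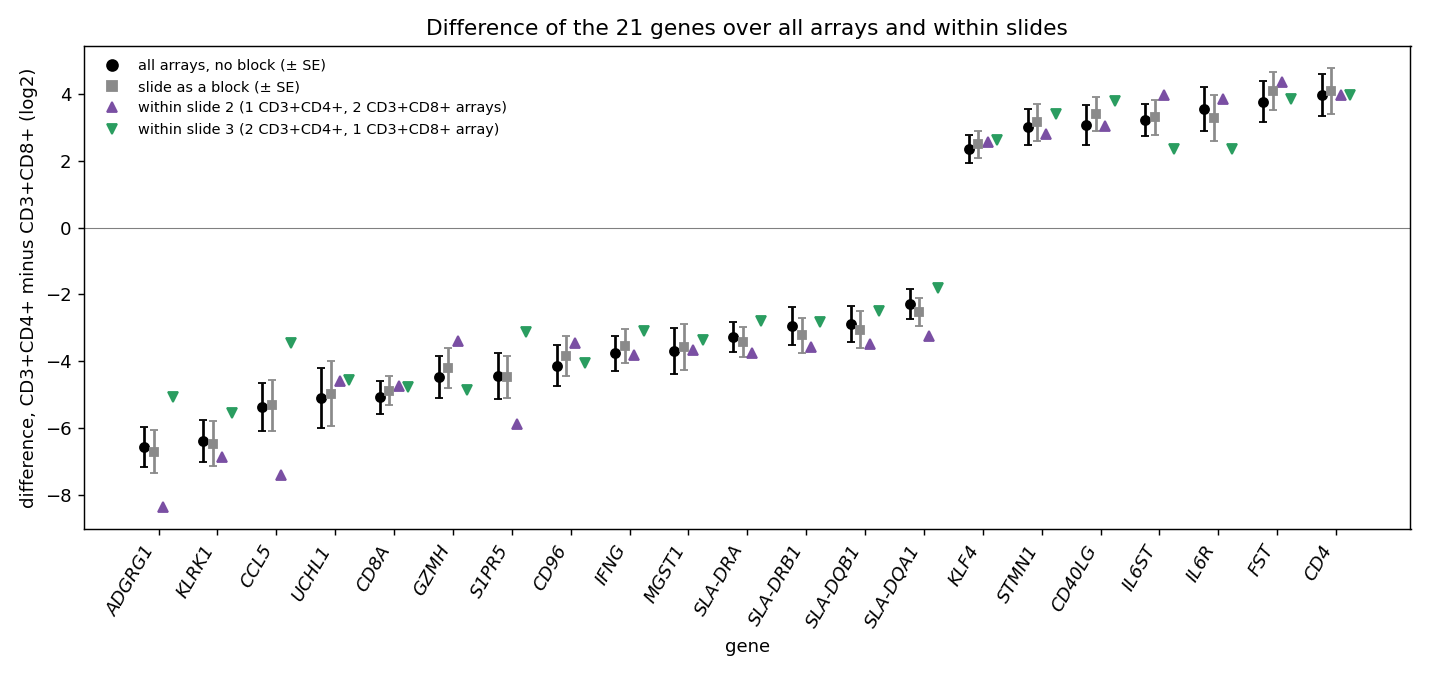
Difference (CD3+CD4+ minus CD3+CD8+, log2, vertical axis) of the 21 genes over all arrays (black, ± SE), with slide as a block (grey, ± SE), and within slide 2 and slide 3 (triangles, no replicates of 1 fraction and so no error). Signs within slides could not differ, since the fractions do not overlap for any of these genes. ADGRG1 and CCL5 show the widest gaps between slides, at -8.37 against -5.06 and -7.40 against -3.44. Both slide 2 values rest on CD4 array 2, which was not well above background for either gene, so these gaps have no exact size.

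The double positive arrays helped to set the spread by which these probes were called, so where they lie is a description. By measured values, the double positive mean was nearer to the CD4 mean for all 20 probes higher in the CD4 fraction. For 18 of these, at least 1 CD8 array was at background, so the CD8 mean is not exact. The called FST probe had a double positive mean of -1.03 and a CD4 mean of 0.05. The lowest signals counted as above background on the CD8 arrays, -0.99, -1.36 and -1.87, were all closer to that -1.03 than 0.05 was. How many of the 20 would change side with raised floors was not counted. Of the 52 lower probes, 34 had a CD4 mean with the same limit. By measured values, the double positive mean of the 52 was nearer to the CD8 mean for 42 and nearer to the CD4 mean for 10. ADGRG1, S1PR5, IFNG and the MHC class II genes were among the first kind, with double positive means of 5.65, 3.13 and 1.45 for the first 3. CD96 and UCHL1 were of the second kind, with double positive means of -2.39 and -3.65. CD40LG and KLF4 stood higher in the double positive fraction, at 4.12 ± 0.93 and 3.31 ± 0.50 (SD), than the mean of the CD4 fraction, at 2.65 ± 0.45 and 2.51 ± 0.43, a difference that was not tested.

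Of the 72 called probes, 37 could not be named, and 30 of the 72 had only a bound, since no array of the dimmer fraction was well above background. Of the unnamed probes, A_72_P327383 was at least 8.61-fold lower in the CD4 fraction (adjusted p = 0.00478), and A_72_P290439 at least 15.9-fold lower (adjusted p = 0.00536). A_72_P047151 was at least 3.21-fold higher (adjusted p = 0.0136) and A_72_P475120 at least 3.36-fold higher (adjusted p = 0.0269). All 4 were tested through the side on which they were bright.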

How the data were processed

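Mononuclear cells of sow blood were isolated on Percoll and sorted, and their RNA was amplified and labelled with Cy3, per the labels' protocols. The deposited scanner files hold intensity on a linear scale, corrected for background and spatial trend within each array by Agilent Feature Extraction 11.0.1.1, per the file headers and the submitters' processing notes. A second deposited table holds the authors' processed values on a log2 scale, with equal quantiles in all 9 columns and a median of 2.60. Larger values there meant brighter spots, no centring was seen, and no source used here names its program. Its CD3+CD8+ columns 1, 2 and 3 followed scanner files 3, 1 and 2.

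Control spots and 1 to 12 outlier spots per array were left out, spots of a probe were averaged, and the 75th percentile over probes that are no controls was subtracted from log2 values. A probe also needed 2 values per fraction. One limma 3.58.1 fit in R 4.3.3 held all 9 arrays with a mean per fraction and no block, with eBayes and its variance trend, a two-sided test per probe and adjustment by Benjamini-Hochberg, and was tested on simulated data. Every adjusted p is from limma. The number of arrays limits the precision, and p-values measure the spread between these arrays. Names come from unversioned accessions in an annotation of Sscrofa11.1, which named 6730 probes (15.4%) for 3052 genes. The files name no build, so no coordinates are given.

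The members and gene lists were chosen with earlier results of these data known. Named by rule were the sorting markers, called genes (up to 15 each way) without overlap, up to 4 called and 3 uncalled members with the smallest p of each list, all tested cell type markers and 4 unnamed probes. A marker on the list is not reported here. SLA- marks pig MHC genes. Alternatives were other scalings, background correction, filters, blocks and the omission of each array. Figures used Python 3.11.15, matplotlib 3.10.9, numpy 2.4.6 and pandas 2.3.3.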

Additional observations from a re-analysis of the deposited data

How the results depend on the processing

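All 21 genes with a called probe kept their direction in each of the 491 values from 24 other settings. Several settings leave the difference itself unchanged, such as the omission of a double positive array. Omission of a CD4 or CD8 array cannot reverse a difference between fractions that do not overlap, so much of this was fixed in advance. Of the 491 values 331 were still called and 160 not, 66 of the latter after omission of an array. Against 72 probes and 17 genes, normexp on median signals (offset 50) left 6 probes and 2 genes, the processed signal with 50 added left 5 probes and 2 genes, testing only probes detected on all 6 arrays left 12 probes and 3 genes, slide as a block left 40 probes, and slide as a block on the 6 arrays alone left 33 probes and 11 genes. Omitting each array in turn gave 35 to 84 probes and 9 to 18 genes. The split without CD4 array 2 was 2 higher and 39 lower, and that of the 6-array slide block 3 and 30. With only probes detected on all 6 arrays tested it was 0 and 12. Counts fell by over 1.5 times without CD4 array 1 (41 probes, 10 genes), CD4 array 2 (41, 9), CD4 array 3 (47, 11), CD8 array 1 (42, 10), CD8 array 3 (43, 11) and, for probes, CD8 array 2 (35). CD79A was called in 8 settings, with adjusted p from 0.00701 to 0.0474, among them the replicate block (0.00873) and the omission of double positive array 2 (0.0106) or 3 (0.0236), and STMN1 by its brightest probe without CD8 array 2 (0.0499). With the offset alone changed from 0 to 50, normexp went from 50 probes to 6. The cause of the other shifts was not tested. The other settings gave 50 to 97 probes. Normexp on mean signals was not run, since the files used here hold median signals, and the median versions, the added constant, the raised floor, the random and 6-array slide blocks and a renumbered block were chosen after seeing the data. The labels do not say what a replicate number shares, and the deviations of CD4 and CD8 arrays with the same number correlated at -0.03, 0.07 and 0.36, so the numbers were not taken as a pairing. A replicate block gave 108 probes and 23 genes, with 71 of the 72, and called CCL4, CD79A, FCGR3A, NKG7, and SLA-DQA1 and STMN1 by their brightest probes. Numbering the CD8 arrays as in the processed table gave 50 probes and 13 genes, and the genes just named were not called in it. Dim signal limits 30 of the 72 calls to bounds.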
